A study of Homo sapiens with 12 samples.

Results

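Liver cancer stem cell markers were examined in sorafenib-resistant HCC cells and their parental HCC cells. The 9 genes are CD44, PROM1, CD24, EPCAM, SOX9, SOX4, KLF4, THY1 and ANPEP, chosen by name from the 27249 genes with an Ensembl identifier in the deposited tables. All 9 were listed in every sample. RNA was sequenced from 2 human liver cancer cell lines, Huh7 and HepG2, to learn which genes change when HCC cells become resistant to sorafenib, a multikinase inhibitor. Each line was sequenced as resistant and as parental cells, giving 4 groups of 3 samples. All 4 groups carried the WT genotype in the labels. Resistant Huh7 and resistant HepG2 cells had been given sorafenib first at 10 µmol for 24 h, and the survivors were then taken through rising doses for 8 months. Parental Huh7 and parental HepG2 cells, labelled sorafenib sensitive, had no treatment. The sources do not say whether the resistant cells of a line are a clone or were derived more than once, so resistance and the history of each derivative cannot be told apart. The labels do not say whether the 3 samples of a group came from separate cultures, and the p-values below measure only the spread between these samples.

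Cancer stem cells are tumour cells defined by self-renewal and tumour initiation, and in liver cancer they have been sorted by surface proteins that are also carried by fetal liver progenitors and bile duct cells. EPCAM is an adhesion molecule of progenitor and bile duct epithelium, PROM1 (CD133) is a membrane protein of cell protrusions, CD24 is a small anchored glycoprotein, CD44 is the hyaluronan receptor, THY1 (CD90) is an anchored protein of mesenchymal and progenitor cells, and ANPEP (CD13) is a membrane aminopeptidase. SOX9, SOX4 and KLF4 are transcription factors that act in progenitor cells: SOX9 marks the bile duct lineage, SOX4 takes part in bile duct development, and KLF4 is one of the reprogramming factors.

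The values were FPKM, that is, reads scaled by exon length and by sequencing depth, and they allow levels to be compared between genes. The reads behind a sample, calculated back from the FPKM, numbered 12290128 to 19285970, and they were lowest in parental HepG2 (12290128 to 15728850). Hepatocyte genes identified the cells in all groups, with 12 of 12 markers at a mean of 1 FPKM or more. A gene was tested in a line where at least 3 of the 6 samples had 1 FPKM or more, by limma on log2(FPKM + 1) with Benjamini-Hochberg adjustment over all genes tested. A gene high in only 1 group can pass this filter through that group, so its entry to the test depends on the difference tested. A gene was called a DEG at an adjusted p below 0.05 when its log2 fold change was also above 1 or below -1. Fold changes on this scale understate those of genes near or below 1 FPKM, so CD44, KLF4 and THY1, and in HepG2 also PROM1 and SOX4, were described by reads and by limma-voom on those reads. In Huh7 the fold changes of all genes rose with the GC content of the transcript (Spearman's rho 0.617 across 12545 genes, which are not independent replicates), whereas rho was 0.039 in HepG2. Values with this trend removed are given beside results whose call or direction depends on it.

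The levels of the 9 markers spanned more than 4 orders of magnitude on the FPKM scale. In parental Huh7, CD24 was highest with a mean of 418 ± 28.2 FPKM (SD, n = 3), followed by SOX9, ANPEP, PROM1, SOX4, EPCAM, CD44, KLF4 and THY1. In resistant Huh7, EPCAM stood above SOX4 and PROM1 below it, the reverse of their places in parental cells. In HepG2 the order was led by SOX9, ANPEP and EPCAM, and CD24 came next in both parental and resistant cells. THY1 and CD44 stayed below 1 FPKM in all 12 samples.

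**Figure D1:**
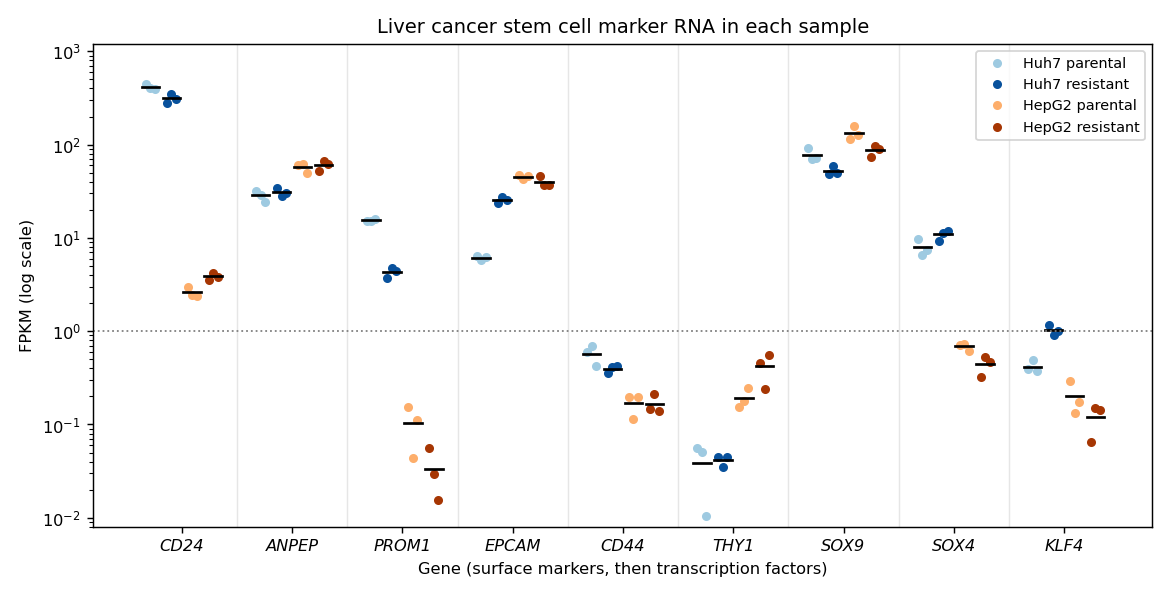
RNA level of the 9 markers in each sample, in FPKM on a log axis, with the 4 groups in different colours. Points are samples, horizontal bars are group means (n = 3) and the dotted line is at 1 FPKM. EPCAM and PROM1 exchange places between parental and resistant Huh7, while CD24, PROM1 and SOX4 are far lower in HepG2 than in Huh7.

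In Huh7, 2 of the 6 markers tested were called, EPCAM higher and PROM1 lower in resistant cells, and of all 12554 genes tested 22.6% were called, 8.59% higher and 14% lower. With the GC trend removed, 701 genes were called higher and 786 lower, where the main test called 1079 and 1759. In HepG2, none of the 4 markers tested was called by limma, where the background was 6.27% of 11762 genes, 3.29% higher and 2.98% lower. At an unadjusted p below 0.05 with the same fold threshold the HepG2 count was also 0, where 802 of 11762 genes passed. Without that fold threshold the HepG2 count was 2, for which the share of all genes was not counted. Limma-voom called 0 of all 9 markers in HepG2, against 9.74% of 17664 genes. In Huh7 it called 3 of 9, adding KLF4, against 33.6% of 19200 genes. With no fold threshold, 5 of 6 markers in Huh7 and 1 of 4 in HepG2 had an adjusted p below 0.05, against 70.1% and 20% of all genes. The groups did not overlap for 4 of 6 tested markers in Huh7 and 2 of 4 in HepG2, against 74.5% and 40.4% of all genes. With so few markers tested, these shares lie near the background.

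EPCAM (ENSG00000119888, chromosome 2, 47345158 to 47387601, plus strand, GRCh38) rose in resistant Huh7. The 3 resistant samples held 23.5, 27.2 and 25.4 FPKM, and the parental samples 6.37, 5.84 and 6.19 FPKM. Every resistant sample lay well above every parental one. In RNA of whole cultures, more cells with EPCAM RNA and more EPCAM RNA per cell cannot be told apart, and the same holds for each marker below. The ratio of means was 4.14 and the log2 fold change was 1.89 (SE 0.10, 95% confidence interval 1.65 to 2.12, adjusted p = 6.64e-06 by limma). In HepG2, EPCAM was high in both groups, with 46.5, 36.5 and 37.0 FPKM in resistant and 46.8, 43.1 and 46.1 FPKM in parental cells. These groups overlapped, and the difference of -0.18 on the log2 scale (95% confidence interval -0.51 to 0.15, adjusted p = 0.388, limma) was within the spread. The change in Huh7 exceeded that in HepG2 by 2.07 (SE 0.15, adjusted p = 2.22e-06, limma interaction), where 28.9% of 13628 genes were called. Parental HepG2 held 7.39 times the EPCAM level of parental Huh7, and resistant HepG2 held 1.58 times that of resistant Huh7. EPCAM was called in Huh7 under all 15 settings of the test on log2(FPKM + 1), including removal of the GC trend, which gave 1.87. The bile duct marker KRT19, a keratin, was also at 70.4 FPKM in resistant and 7.18 FPKM in parental Huh7. The summed level of the 6 bile duct markers ran from 64.2 to 91.8 FPKM against 17.0 to 20.4 FPKM, with 3 of 6 at 1 FPKM or more in each group and KRT7 at or near 0. The higher sum was mostly KRT19, and SPP1 was at 1.80 FPKM in resistant and 2.11 FPKM in parental Huh7. In HepG2, where EPCAM was not called, the sum was also higher in resistant cells, at 143 to 185 FPKM against 45.7 to 64.2 FPKM, mostly from SPP1. The part of these genes in the EPCAM result was not tested.

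PROM1 (ENSG00000007062, chromosome 4, 15963076 to 16084378, minus strand) fell in resistant Huh7. The resistant samples held 3.70, 4.73 and 4.44 FPKM, against 15.2, 15.3 and 16.0 FPKM in the parental samples. The groups were far apart, and parental cells held 3.61 times the resistant level. The log2 fold change was -1.65 (SE 0.11, 95% confidence interval -1.90 to -1.39, adjusted p = 1.67e-05, limma). PROM1 has a GC content of 43.2%, at which the median gene of resistant Huh7 was lower by 0.38 on the log2 scale, and removal of the GC trend left -1.30 (adjusted p = 1.44e-05). It was called under all 15 settings. The ratio of EPCAM to PROM1 was 0.382 to 0.420 in the parental Huh7 samples and 5.73 to 6.36 in the resistant ones.

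HepG2 cells held almost no PROM1 RNA. The FPKM were 0.0556, 0.0294 and 0.0156 in resistant cells and 0.154, 0.0438 and 0.111 in parental cells, from 13 reads in all resistant and 32 reads in all parental samples. The groups overlapped through the second parental sample. By limma-voom on the reads the log2 fold change in HepG2 was -1.55 (SE 0.64, adjusted p = 0.103), with 9.74% of 17664 genes called. Without each HepG2 sample in turn it ran from -1.99 to -1.16, with an adjusted p of up to 0.319 (limma-voom). Only 1 of these 6 fits called PROM1, the one without parental replicate 2 (-1.99, adjusted p = 0.0389, limma-voom). The interaction of -1.55 on log2(FPKM + 1) (SE 0.14, adjusted p = 7.94e-06, limma) therefore compares a line with 3.70 FPKM or more with a line near 0. On the reads, where the fold changes of the lines can be set side by side, the interaction was -0.32 (SE 0.59, 95% confidence interval -1.55 to 0.92, adjusted p = 0.706, limma-voom), so a difference between the lines in the fold change of PROM1 was not detectable at this depth.

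CD24 (ENSG00000272398, chromosome 6, 106969831 to 106975627, minus strand) was among the most abundant RNAs of Huh7, above 99.8% of genes in resistant and 99.9% in parental cells. The resistant samples held 281, 352 and 311 FPKM and the parental samples 450.2, 407 and 397 FPKM. The groups did not overlap, and the log2 fold change of -0.41 (SE 0.13, adjusted p = 0.0218, limma) was short of the fold threshold. Its adjusted p lay below 0.05 in 10 of the 15 settings. In HepG2, CD24 was far lower, with 3.57, 4.22 and 3.85 FPKM in resistant and 3.00, 2.47 and 2.36 FPKM in parental cells. Here the resistant samples lay above the parental ones, with a log2 fold change of 0.44 (SE 0.14, adjusted p = 0.0641, limma). The changes in the lines differed by -0.85 (SE 0.16, adjusted p = 0.00101, limma interaction), with an adjusted p below 0.05 in all 20 settings of that fit. CD24 has processed copies elsewhere in the genome, and how reads shared with them were assigned is not given in the sources used here, so its level is uncertain.

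ANPEP (ENSG00000166825, chromosome 15, 89784889 to 89815401, minus strand) varied little with resistance. Resistant Huh7 samples held 34.5, 28.2 and 30.6 FPKM and parental ones 32.0, 28.9 and 24.5 FPKM. Resistant HepG2 samples held 51.9, 67.5 and 62.4 FPKM, against 60.4, 62.4 and 49.7 FPKM in parental cells. The groups overlapped in both lines. The log2 fold changes were 0.12 in Huh7 (95% confidence interval -0.17 to 0.42, adjusted p = 0.412) and 0.07 in HepG2 (-0.29 to 0.44, adjusted p = 0.766, limma). ANPEP is GC-rich (58.4%), and in Huh7 removal of the GC trend turned the direction, giving -0.42 (SE 0.07, adjusted p = 0.00135). The difference from the median of genes of like GC content is therefore a fall, and the difference in FPKM is within the spread.

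CD44 (ENSG00000026508, chromosome 11, 35138870 to 35232402, plus strand) was low throughout. Huh7 samples held 0.353, 0.415 and 0.426 FPKM when resistant and 0.596, 0.688 and 0.427 FPKM when parental, from 67 to 81 and 69 to 116 reads per sample. The groups were separated by under 0.001 FPKM between the third samples, and limma-voom gave a log2 fold change of -0.50 (SE 0.22, adjusted p = 0.0538). With the GC trend removed it was -0.21 (adjusted p = 0.375). In HepG2, with 0.148, 0.213 and 0.139 FPKM in resistant and 0.198, 0.114 and 0.197 FPKM in parental cells, the groups overlapped and the log2 fold change was -0.03 (SE 0.36, adjusted p = 0.972, limma-voom). These values are for the whole gene, and standard and variant CD44 transcripts were not separated.

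THY1 (ENSG00000154096, chromosome 11, 119417378 to 119424985, minus strand) was at the edge of detection in Huh7, with 4 to 5 reads in each resistant sample and 1 to 6 reads in each parental sample. No difference between these Huh7 groups was detectable at this depth (log2 fold change 0.25, SE 0.71, adjusted p = 0.777, limma-voom). In HepG2 the resistant samples held 0.458, 0.240 and 0.559 FPKM, from 26 to 57 reads, and the parental samples 0.154, 0.179 and 0.247 FPKM, from 12 to 23 reads. Resistant replicate 2 lay inside the parental range, and the log2 fold change was 1.00 (SE 0.40, adjusted p = 0.0928, limma-voom). Without that sample the log2 fold change was 1.37 (adjusted p = 0.0193, limma-voom). This was the only call among the 6 fits without each HepG2 sample in turn. Those ran from 0.756 to 1.37, with an adjusted p of up to 0.313 (limma-voom). On the opposite strand a NONCODE transcript that spans THY1 was at a mean of 1.66 FPKM in resistant and 2.85 FPKM in parental HepG2. The sources used here do not state strand-specific counting, so reads of the pair cannot be told apart. Fibroblasts also carry THY1. Of 8 fibroblast markers 2 were at 1 FPKM or more in HepG2. These were ACTA2, at 15.9 FPKM in resistant and 18.8 FPKM in parental cells, and PDGFRB, at 2.07 and 3.58 FPKM. The sums of the 8 ran from 15.5 to 22.6 FPKM in resistant and 16.5 to 26.2 FPKM in parental samples, mostly from ACTA2. The rest, among them collagens COL1A1, COL1A2 and COL3A1, were near 0.

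SOX9 (ENSG00000125398, chromosome 17, 72121020 to 72126420, plus strand), the bile duct lineage factor, was lower in resistant cells of both lines. In Huh7 the resistant samples held 48.8, 59.0 and 49.2 FPKM and the parental samples 91.2, 70.7 and 72.5 FPKM. In HepG2 the resistant samples held 74.3, 97.9 and 89.2 FPKM, against 115, 158 and 126 FPKM. Resistant and parental samples were apart in both lines. The log2 fold change was -0.57 in Huh7 (SE 0.14, adjusted p = 0.00569) and -0.60 in HepG2 (SE 0.17, adjusted p = 0.0445, limma), neither past the fold threshold. In Huh7 the adjusted p lay below 0.05 in all 15 settings and in HepG2 in 8 of 15, where it ran from 0.00264 to 0.136 over these settings and the fits on reads. The interaction was 0.03 (95% confidence interval -0.45 to 0.52, adjusted p = 0.915, limma), an interval that still allows the lines to differ by up to 0.52 on the log2 scale.

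SOX4 (ENSG00000124766, chromosome 6, 21592768 to 21598619, plus strand), a single-exon gene, was higher in the mean of resistant Huh7. The samples held 9.32, 11.4 and 11.99 FPKM when resistant and 9.62, 6.62 and 7.47 FPKM when parental. Parental replicate 1 lay above resistant replicate 1, so the groups overlapped. The log2 fold change of 0.43 (SE 0.15, adjusted p = 0.0327, limma) fell to 0.14 with the GC trend removed (adjusted p = 0.349), and the adjusted p lay below 0.05 in 8 of the 15 settings. In HepG2 the values were 0.323, 0.533 and 0.467 FPKM against 0.716, 0.737 and 0.608 FPKM, with every resistant sample below every parental one and a log2 fold change on the reads of -0.65 (SE 0.29, adjusted p = 0.126, limma-voom). The changes in the lines differed by 0.65 on log2(FPKM + 1) (SE 0.19, adjusted p = 0.0133) and by 1.12 on the reads (SE 0.34, adjusted p = 0.012, limma-voom).

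KLF4 (ENSG00000136826, chromosome 9, 107484852 to 107490482, minus strand) was not tested by limma in either line because too few samples reached 1 FPKM. Resistant Huh7 held 1.15, 0.907 and 1.01 FPKM, from 64 to 80 reads, and parental Huh7 0.396, 0.487 and 0.372 FPKM, from 22 to 30 reads. All resistant samples lay above all parental ones. On the reads the log2 fold change was 1.27 (SE 0.28, adjusted p = 0.000187, limma-voom), a call that 33.6% of 19200 genes shared under that fit, and it was kept without each sample in turn (1.18 to 1.38). KLF4 has a GC content of 55.0%, and with the GC trend removed its log2 fold change was 0.82 (adjusted p = 0.00418), below the fold threshold. HepG2 held only 4 to 10 reads in resistant and 6 to 14 reads in parental samples, with overlapping groups and a log2 fold change of -0.73 (SE 0.53, adjusted p = 0.365, limma-voom). The interaction on the reads was 2.00 (SE 0.56, adjusted p = 0.00677, limma-voom), against a background of 31.4% of 20818 genes.

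**Figure D2:**
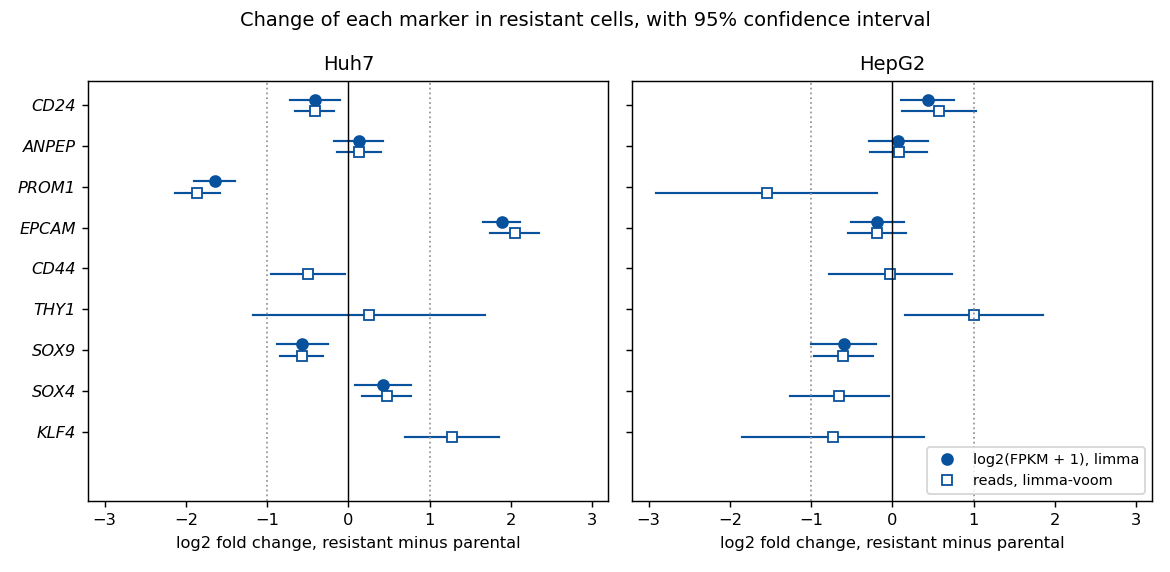
Log2 fold change of each marker in resistant against parental cells, with Huh7 on the left and HepG2 on the right. Filled circles are limma on log2(FPKM + 1), open squares are limma-voom on reads, bars are 95% confidence intervals and dotted lines mark the fold threshold of 1. In Huh7 EPCAM (1.89) and PROM1 (-1.65) lie clear of the threshold by both methods, and in HepG2 the interval of every marker reaches inside it.

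The position of each marker relative to genes of like GC content was described as well. In Huh7 the median gene had a log2 fold change of -0.04, but this median ran from -1.01 for genes centred at 35% GC to 0.56 for those centred at 61%. EPCAM at 47.0% GC lay above the 90th percentile of genes of its GC content (0.89), and PROM1 lay below the 10th percentile (-1.21). CD24, SOX4 and ANPEP lay between these percentiles, SOX9 (51.0% GC, -0.57) lay just above the 10th percentile of -0.62, and removal of the trend gave SOX9 -0.87.

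**Figure D3:**
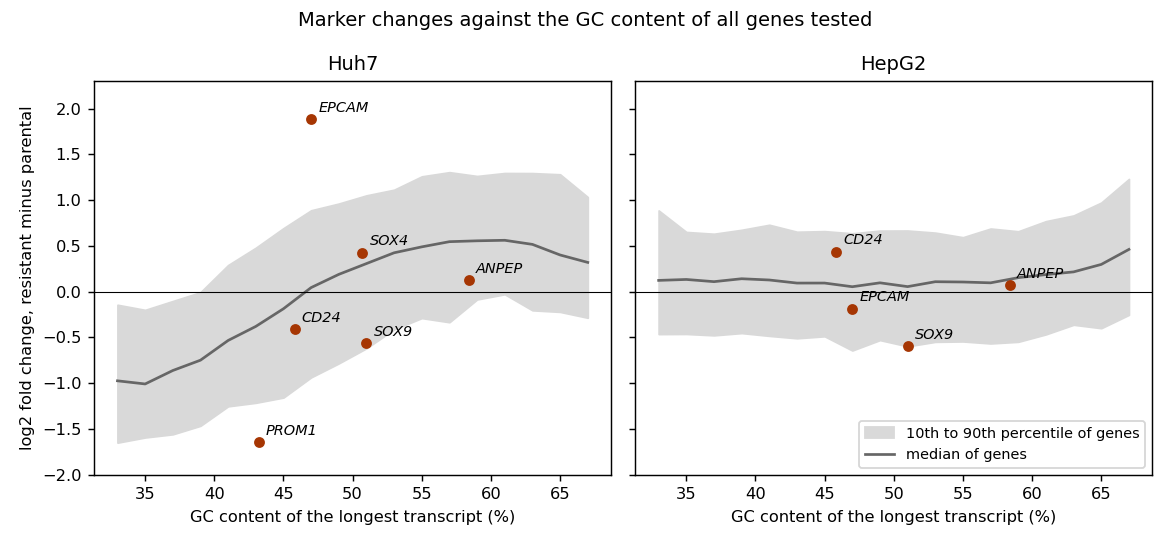
Log2 fold change in resistant against parental cells over the GC content of each gene's longest transcript, for Huh7 (left) and HepG2 (right). The line is the median and the band the 10th to 90th percentile of all genes tested, in bins of GC content, and points are the markers tested. EPCAM and PROM1 lie outside the band in Huh7. In HepG2 the band is nearly level except at high GC content, where the median reaches 0.46 for genes centred at 67%.

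Levels were also compared between the lines. The 12-sample fit held genes that passed the filter in either line, and PROM1 and SOX4 passed only in Huh7. Of the 6 markers in the 12-sample fit, 4 were called between parental Huh7 and parental HepG2, against 30.5% of all genes, and 3 between the resistant lines, against 27%. Those called in both comparisons include PROM1 and SOX4, which entered through the line where they were high. CD24 was higher in Huh7 by 6.86 on the log2 scale in parental cells (SE 0.11, adjusted p = 8.48e-12, limma) and by 6.01 in resistant cells (SE 0.11, adjusted p = 8.43e-12). The ratio of the mean CD24 levels was 160 between the parental lines (160.2) and 81.1 between the resistant lines. SOX4 was higher in Huh7 by 2.39 in parental and 3.04 in resistant cells, with ratios of means of 11.5 and 24.7. PROM1 was also higher in Huh7, by 3.90 and 2.35 on log2(FPKM + 1) and by 7.30 and 6.98 on the reads. EPCAM was lower in parental Huh7 by -2.70 (SE 0.11, adjusted p = 1.31e-09, limma), and in resistant Huh7 the difference was -0.63 (SE 0.11, adjusted p = 0.000325), short of the threshold. SOX9 and ANPEP were lower in Huh7 by -0.75 and -0.99 in parental cells and by -0.72 and -0.94 in resistant cells, each with an adjusted p below 0.05 in all 20 settings, against 67.9% and 64.8% of all genes in the main test, and short of the fold threshold, which ANPEP passed in 6 and 3 of those settings. On the reads, CD44 and KLF4 were higher and THY1 lower in Huh7 in both conditions, past the fold threshold in each case, where 40.3% of genes were called between the parental and 37.8% between the resistant lines. KLF4 between the parental lines lost this call without parental Huh7 replicate 2, parental HepG2 replicate 2 or parental HepG2 replicate 3 (adjusted p = 0.0718, 0.0977 and 0.0744, limma-voom).

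Ordered over the 4 groups, EPCAM ran from parental HepG2 and resistant HepG2, which overlapped, through resistant Huh7 to parental Huh7. PROM1 and CD24 were highest in parental Huh7, then resistant Huh7, then HepG2. The neighbours in the CD24 order did not overlap, and for PROM1 the HepG2 groups did. SOX9 was highest in parental HepG2, and the next groups, resistant HepG2 and parental Huh7, overlapped. ANPEP was higher in HepG2 than in Huh7, with overlap inside each line.

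The genes with the most similar pattern to a marker were found by the root-mean-square distance of log2(FPKM + 1), centred per gene, over the 12 samples among 13628 genes. For PROM1 they were MECOM (distance 0.144) and TNFRSF11B (0.183). MECOM had mean levels of 4.71 and 17.6 FPKM in resistant and parental Huh7 and below 0.05 FPKM in HepG2. For EPCAM they were AKR1C1 (0.179), an aldo-keto reductase at 195 and 43.3 FPKM in resistant and parental Huh7, and PATJ (0.186), a tight junction scaffold. SOX9 was nearest to GSDME (0.171) and the polarity gene PARD3 (0.174), SOX4 to TRIM6 (0.177) and ZNF35 (0.179), and ANPEP to MIEN1 (0.098) and EIF2D (0.0988). CD24 had more distant neighbours, the vitamin D-binding protein gene GC (0.342) and HAVCR1 (0.380). The group means of CD44, KLF4 and THY1 spanned too little for this search.

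Genes related to the markers were counted in 6 lists. Among 15 other surface and enzyme markers of liver cancer stem cells, 9 were tested in Huh7, of which 3 rose and 2 fell, and 8 in HepG2, of which none rose and 1 fell. The shares called were 55.6% and 12.5%, against 22.6% and 6.27% of all genes. CD9, DLK1 and CD47 averaged below 1 FPKM in 1 group, at 0.884 and 0.711 in parental and 0.562 in resistant Huh7. Their place in the test rested on the group where they were high, and the 55.6% counts all 3. Their median log2 fold changes were -0.13 and -0.41, against -0.04 and 0.12 over all genes. In Huh7 the tetraspanin CD9 rose from 0.884 to 9.15 FPKM (log2 fold change 2.43), the drug efflux pump ABCG2 rose from 2.83 to 10.7 FPKM (1.61), and DLK1, a fetal liver antigen, rose by 1.03. CD47, the signal that restrains phagocytosis, fell by 1.51 and the adhesion molecule ALCAM fell by 1.19 on the log2 scale in Huh7. ALCAM also fell by 1.87 in HepG2, where CD9, ABCG2 and DLK1 had log2 fold changes of -0.04, -0.62 and -0.31. With the GC trend removed, CD9 (2.11) and ABCG2 (2.13) stayed past the fold threshold in Huh7, while DLK1 (0.53), CD47 (-0.75) and ALCAM (-0.51) did not.

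Of the transcription factor lists, 7 of 13 pluripotency and self-renewal factors were tested in each line. Of those, 14.3% in Huh7 and 28.6% in HepG2 were called, against 22.6% and 6.27% of all genes. In Huh7 none rose and 1 fell, BMI1, a Polycomb protein, by 1.38, or by 0.66 with the GC trend removed. In HepG2 TCF3 rose by 1.02 (adjusted p = 0.0461, limma), or 0.84 with the GC trend removed, which ended the call. MYC fell in HepG2 from 284 to 89.3 FPKM (log2 fold change -1.66), whereas MYC was at 62.5 FPKM in resistant and 33.5 FPKM in parental Huh7 (0.88, or 0.43 with the GC trend removed), a difference between the lines of 2.54 (adjusted p = 2.54e-06, limma interaction). Of the SOX family apart from SOX9 and SOX4, SOX6 fell in Huh7 (-1.21) among 4 tested and rose in HepG2 (1.92) among 5 tested. SOX6 was the 1 call of that family in each line (25% and 20%, against 22.6% and 6.27% of all genes). With the GC trend removed, SOX6 had -0.74 in Huh7, short of the fold threshold, and 1.82 in HepG2. In HepG2 its parental mean was 0.446 FPKM, so SOX6 passed the filter there only through the resistant samples. The changes of SOX6 in the lines differed by -3.13 (SE 0.19, adjusted p = 4.87e-07, limma interaction).

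KLF5 was called in opposite directions in the lines. In Huh7, of 9 tested, KLF5 rose from 23.1 to 91.5 FPKM (log2 fold change 1.94) and KLF12 fell by 1.44, or 0.70 with the GC trend removed, short of the threshold. These were 22.2% of the family tested in Huh7, against 22.6% of all genes. In HepG2, of 8 tested, none rose and 4 fell, among them KLF5 from 25.5 to 4.06 FPKM (-2.38), KLF10 (-1.64), KLF15 (-1.30) and KLF6 (-1.24). This was 50% of those tested, against 6.27% of all genes called in HepG2 and 2.98% called lower. KLF15, at a resistant mean of 0.770 FPKM in HepG2, passed the filter only through the parental samples. The median log2 fold change of the family was 0.16 in Huh7 and -1.06 in HepG2. For KLF5, a factor of proliferating epithelium, the difference between the lines was 4.32 (SE 0.17, adjusted p = 4.69e-08, limma interaction), and the GC trend made no difference to its direction (1.93 in Huh7).

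Of 21 ligands, partners, proteases and splicing regulators of CD44 and EPCAM, 15 were tested in Huh7, of which 4 rose and 3 fell, and 13 in HepG2, of which 1 rose and 1 fell. The shares called were 46.7% and 15.4%, against 22.6% and 6.27% of all genes. The median log2 fold changes of this list were 0.26 and -0.06. ESRP1 and ESRP2, which direct epithelial splicing of CD44, rose in resistant Huh7, ESRP2 from 4.32 to 18.95 FPKM (1.90) and ESRP1 from 0.109 to 1.80 FPKM (1.33). Osteopontin (SPP1), a CD44 ligand, rose in HepG2 from 40.7 to 144 FPKM (1.83). SLC7A11, the cystine transporter that variant CD44 holds at the membrane, fell in Huh7 (-1.15) and in HepG2 (-1.84). The hyaluronan receptor HMMR (-1.28) and the shedding protease ADAM10 (-1.38) fell in Huh7. With the GC trend removed in Huh7, ESRP1 (1.71) and ESRP2 (1.36) stayed past the threshold, and SLC7A11 (-0.21), HMMR (-0.40) and ADAM10 (-0.60) did not. The other 2 called higher, EZR (1.09) and CLDN7 (1.06), named after their values were seen, also fell short of it then (0.78 and 0.52). ESRP1 and CLDN7, at parental means of 0.109 and 0.235 FPKM, passed the filter only through the resistant samples, and the 46.7% counts both. Of 12 membrane peptidases like ANPEP, 6 were tested in Huh7 and 1 was called (16.7%, against 22.6% of all genes). This was GGT1, the gamma-glutamyl transferase, which rose from 1.67 to 7.88 FPKM (1.72). Another 4 of the 6 were lower with an adjusted p below 0.05 but short of the fold threshold. At that adjusted p, in either direction, the share of all genes was 70.1%. Of these 4, TRHDE (0.340 FPKM in resistant, 1.18 FPKM in parental cells) and LVRN (0.545 and 1.53 FPKM) passed the filter only through the parental samples. The median log2 fold change of the list was -0.70 and counts both. With the GC trend removed, 2 of these 4 had an adjusted p above 0.05. The 5 tested in HepG2 held no call by limma, against 6.27% of all genes. An adjusted p below 0.05 was reached by 2 of the 5, against 20% of all genes. Of these 2, DPEP1 (1.56 FPKM in resistant, 0.322 FPKM in parental cells) passed the filter only through the resistant samples.

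**Figure D4:**
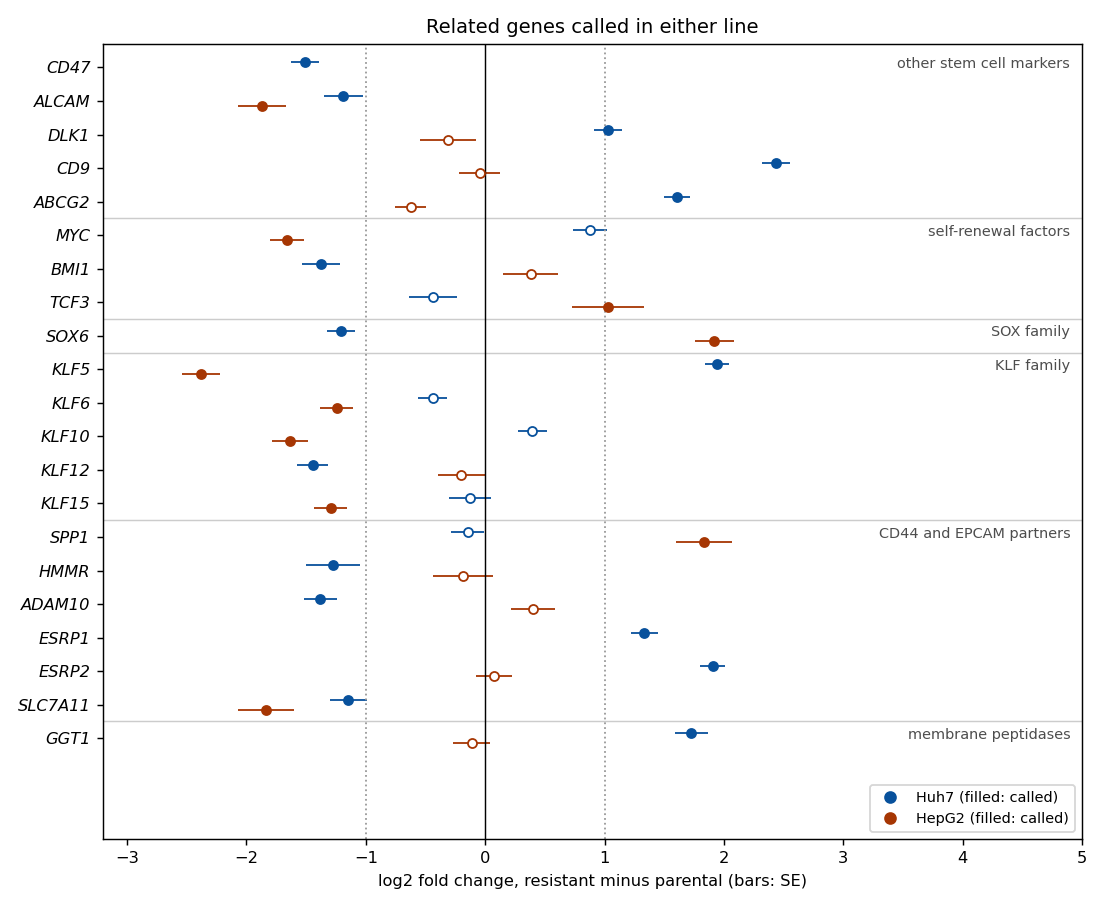
Log2 fold change in resistant against parental cells of the related genes called in either line, at most 6 per list. Blue points are Huh7, brown points are HepG2, bars are standard errors and filled points passed the adjusted p and the fold threshold. KLF5 and SOX6 lie on opposite sides of 0 in the lines, and ALCAM and SLC7A11 lie below 0 in both.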

How the data were processed

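The authors deposited 1 table of FPKM per sample. Per the labels, RNA came from a column kit, while the methods name TRIzol, and libraries were made without a stated strand protocol. The submitters' processing notes name bcl2fastq and GRCh38. The aligner and quantifier are not given in the sources used here, nor is the unit. Of 26700 values of single-exon genes, 99.38% lay within 0.05 of a whole number of reads when multiplied by exon length (GENCODE release 29), which fits FPKM or RPKM. FPKM were used without rescaling. Ensembl genes held 74.53 to 79.61% of the FPKM in parental and 85.55 to 87.69% in resistant Huh7. In HepG2 they held 83.8 to 84.91% in parental and 79.28 to 83.38% in resistant cells. Under median-ratio scaling the log2 fold changes of CD24, SOX9 and SOX4 in Huh7 were -0.33, -0.48 and 0.50. Tests used limma 3.58.1 (R 4.3.3) with a mean trend on log2(FPKM + 1), per line and in a 12-sample fit for contrasts across lines. Limma-voom used genes with 10 or more recovered reads. Only the limma test per line was run on simulated data, and the 12-sample fit and limma-voom were not. The GC trend was removed per sample by lowess (span 0.3). The 9 markers and the related lists were chosen with earlier results of these data known. All 9 markers were named, along with related genes called in either line (up to 6 per list by fold change) and the 2 nearest genes per marker. Alternatives were pseudocount 0.1, no filter, upper-quartile and median-ratio scaling, no trend, a joint fit, a replicate block, GC removal and omission of each sample. The fits on reads were added after seeing the data. No molecular identifiers were used, so reads may be copies of 1 molecule and counting errors are lower limits. NONCODE genes were not tested.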

Additional observations from a re-analysis of the deposited data

Results flagged for a closer look

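The change in Huh7 minus that in HepG2 passed the interaction test of limma at an adjusted p below 0.05 for 4 of the 6 markers in the 12-sample fit, against 56.7% of all genes. Of these, PROM1 and SOX4 passed the filter only in Huh7. EPCAM had 2.07 and was higher in 3 of 3 resistant Huh7 samples than in any parental one, with overlapping groups in HepG2. PROM1 had -1.55, which on the reads was -0.32 (adjusted p = 0.706, limma-voom). CD24 had -0.85, with resistant samples below the parental ones in Huh7 and above them in HepG2. SOX4 had 0.65, with overlap in Huh7 and resistant samples below the parental ones in HepG2. Groups of 3 samples were not tested for outlying samples.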

How the results depend on the processing

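EPCAM and PROM1 were the markers called in Huh7 under every setting on log2(FPKM + 1), and the counts of called markers without each sample in turn were 2 in Huh7, 0 in HepG2, 2 in the interaction, 4 to 5 between the parental lines and 3 to 4 between the resistant lines. With an adjusted p below 0.05 and no fold threshold, the counts were 5 in Huh7, 1 in HepG2, 4 in the interaction and 6 between the resistant lines. The shares of all genes at that threshold were 70.1%, 20%, 56.7% and 64.8%, in that order. On the reads, where more markers were tested, 8 were called between the parental and 6 between the resistant lines, against 40.3% and 37.8% of all genes. On the reads with the GC trend removed, these counts were 7 and 7, where 8047 and 7911 of 20806 genes were called. PROM1 became 1 call in HepG2 under that fit, where 1911 of 17655 genes were called. Near-zero changes turned direction: with the GC trend removed, ANPEP had -0.42 in Huh7 (-0.44 on the reads), -0.052 in HepG2 (-0.068 on the reads) and -0.31 in the interaction (-0.31 on the reads), and the SOX9 interaction was -0.15 (-0.017 on the reads). On the reads with the GC trend removed, THY1 in Huh7 was -0.28 and the PROM1 interaction was 0.31. The PROM1 interaction was not near 0 in the main fit, at -1.55, and it was called in all 20 settings on log2(FPKM + 1). Under upper-quartile and median-ratio scaling, ANPEP in HepG2 had -0.029 and -0.048. Without each sample in turn, ANPEP ran from -0.026 to 0.18 in HepG2 and from -0.055 to 0.15 in the interaction, the SOX9 interaction from -0.099 to 0.15, and on the reads CD44 in HepG2 from -0.26 to 0.11 and THY1 in Huh7 from -0.35 to 0.62. The cause of these shifts was not tested. The deviations of same-numbered samples had correlations of 0.084, 0.062 and -0.228 in Huh7 and of 0.246, 0.437 and -0.011 in HepG2, where 2 of 3 were above 0.1. As not every pair of a line was above it, the numbers were not taken as pairs. With the number as a replicate block the counts of called markers stayed at 2 in Huh7 and 0 in HepG2, EPCAM in Huh7 had 1.89 (adjusted p = 0.000121, limma) and SOX4 in Huh7 had an adjusted p of 0.058. Of all genes, 2838 were called in Huh7, 1487 with the GC trend removed (701 higher and 786 lower) and 6460 on the reads, and in HepG2 737 and, on the reads, 1720. The interaction had 3939 calls, or 6528 on the reads, the parental lines 4153 or 8387, and the resistant lines 3677 or 7876. Median-ratio scaling moved the HepG2 calls from 387 higher and 350 lower to 282 and 445, and those of the interaction from 1454 higher and 2485 lower to 1902 and 1943. Depth limits CD44, THY1 and KLF4 in all groups, and PROM1 and SOX4 in HepG2.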
